A study of Mus musculus with 12 samples.

Results

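The ligands of the epidermal growth factor (EGF) family and their ERBB receptors were followed through RNA sequencing of primary fibroblasts from mouse skin. The 10 genes were taken by name: the ligands Hbegf, Areg, Ereg, Tgfa, Btc, Epgn and Nrg1 and the receptors Egfr, Erbb2 and Erbb3, out of 21556 genes in the count table. The cells were isolated from abdominal skin of wild type (WT) mice of strain C57BL/6 or of Nox4 KO mice of strain B6.129-Nox4tm1Kkr/J, which carry a targeted allele of Nox4, the gene of NADPH oxidase 4. In each genotype, 3 libraries came from unstimulated cells (control) and 3 from cells given 10 ng/ml transforming growth factor β2 (TGF-β2) for 24 h after 24 h of starvation, 12 libraries in all. The study calls the 3 samples of each group biological replicates, but whether they came from separate mice is not given in the sources used here, so the p-values measure the spread between these samples, which may be partly technical.

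EGF family ligands are made as membrane-anchored precursors, and metalloproteases of the ADAM family cut them from the cell surface. The free ligand binds an ERBB receptor through a small fold held together by paired cysteines, the receptors pair up and phosphorylate each other, and the RAS-ERK and PI3K-AKT pathways carry the signal into the cell. In skin the family is known for driving keratinocyte growth and migration during wound closure, and fibroblasts both send and receive these signals. EGFR binds HB-EGF, amphiregulin, epiregulin, TGF-α, betacellulin and epigen. Neuregulin 1 binds ERBB3 or ERBB4, and ERBB2 has no ligand of its own and serves as the partner of the other receptors.

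Totals lay between 35118344 and 43796260 counts per library. Nox4, the targeted gene, had 1.48, 1.31 and 2.42 RPKM (reads per kilobase of merged exons, scaled to the total counted reads of the library) in WT control replicates 1 to 3, and 0.655, 0.636 and 1.399 RPKM in Nox4 KO control. After TGF-β2 it had 10.9, 8.56 and 16.3 RPKM in WT and 4.54, 4.39 and 6.85 RPKM in Nox4 KO. The KO libraries lay below the WT libraries after TGF-β2 and overlapped them in control, and counts over the whole gene do not show which exons the remaining reads came from. All 9 fibroblast markers were above 1 RPKM in every group, and 0 of 9 keratinocyte markers and 0 of 9 Schwann cell and melanocyte markers were, with Tyr at 0 in every library. The 5 adipocyte markers were all under 1 RPKM and 1 of 5 endothelial markers was above it. Of 7 macrophage markers, 4 or 5 per group were above 1 RPKM, and their summed level ran from 19.0 to 109 RPKM over the control libraries and from 12.5 to 74.2 RPKM over the stimulated ones, most of it from Lyz2. It was highest in replicate 3 of both WT groups and in replicate 1 of both KO groups. In such bulk samples fewer cells of a type and less RNA per cell cannot be told apart.

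Within the family, expression spanned several orders of magnitude (the plot of RPKM on a log scale). In control cells Egfr (17.1 to 23.9 RPKM over 6 libraries) and Hbegf (13.3 to 25.1 RPKM) were the most abundant and their ranges overlapped. Erbb2 (9.36 to 10.4 RPKM) and Ereg (7.23 to 12.0 RPKM) came next and also overlapped, followed by Nrg1 at 2.00 to 3.00 RPKM. Btc, Tgfa, Areg, Epgn and Erbb3 stayed under 1 RPKM in every library. A gene was tested only where its mean reached 1 RPKM in at least 1 of the groups compared, so 5 of the 10 genes entered the tests, and those 5 reached that mean in every group, control included.

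**Figure D1:**
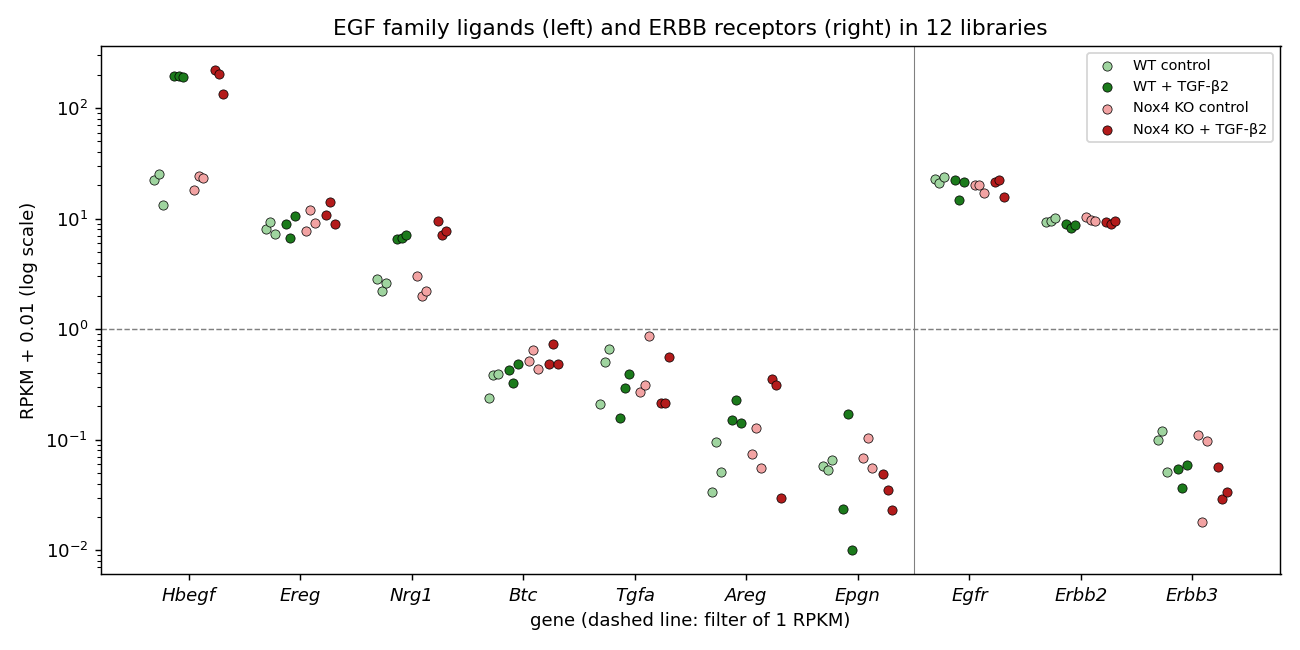
RPKM plus 0.01 on a log axis for the 7 ligands and 3 receptors, 1 point per library (3 per group). Hbegf and Nrg1 points after TGF-β2 lie above all control points in both genotypes, and 5 genes lie under the dashed filter line at 1 RPKM in all 12 libraries.

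TGF-β2 raised 2 of the 5 tested genes, the ligands Hbegf and Nrg1, in WT and again in Nox4 KO fibroblasts. A gene was called at an adjusted p under 0.05 in the quasi-likelihood test of edgeR, adjusted by Benjamini-Hochberg over every gene tested in that comparison. Among all tested genes, 10.4% were called higher in WT and 15.1% in Nox4 KO. The share called higher by at least 2-fold, as Hbegf and Nrg1 both were, was 2.62% in WT and 2.22% in Nox4 KO. None of the 5 was called lower, where the shares over all genes were 12.2% in WT and 14.9% in Nox4 KO. At an unadjusted p under 0.05 in edgeR, Hbegf and Nrg1 were again the 2 family members past the threshold in both genotypes, where 37.7% of all tested genes in WT and 43.8% in Nox4 KO were past it in either direction. DESeq2 called the same 2 members among 31.5% of all genes in WT and 37.7% in Nox4 KO, and edgeR's exact test did so among 26.2% and 28.7%. The groups did not overlap for 3 of the 5 genes in each genotype, against 45.2% of tested genes in WT and 48.5% in Nox4 KO. The median log2 fold change of the 5 was 0.13 in WT and 0.32 in Nox4 KO, beside -0.0027 and -0.014 over all genes tested.

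Hbegf (ENSMUSG00000024486, chr18:36504927-36515805 in GRCm38, minus strand) encodes heparin-binding EGF-like growth factor, an EGFR ligand that also binds heparan sulfate. It had 22.3, 25.1 and 13.3 RPKM in WT control replicates 1 to 3 and 194, 194 and 191 RPKM after TGF-β2. In Nox4 KO it had 18.4, 24.3 and 23.2 RPKM in control and 222, 206 and 135 RPKM after TGF-β2. Every stimulated library stood far above every control library, and the stimulated WT libraries were nearly equal while KO replicate 3 was lower than the other 2 KO libraries. The rise was 9.76-fold in WT (log2 fold change 3.29, SE 0.26, 95% interval 2.67 to 3.90, adjusted p = 0.000742). In Nox4 KO it was 9.08-fold (log2 fold change 3.18, SE 0.23, 95% interval 2.63 to 3.74, adjusted p = 0.00155). WT control replicate 3, the library with the lowest Hbegf, also had the highest macrophage marker sum, 109 RPKM. In stimulated WT the library of highest sum, replicate 3, had 191 RPKM of Hbegf, close to the others. In Nox4 KO replicate 1 had the highest sum in both groups, with the lowest Hbegf in control (18.4 RPKM) and the highest after TGF-β2 (222 RPKM). Without the library of highest macrophage sum in each group, the log2 fold change was 3.05 in WT (adjusted p = 0.00207) and 2.93 in Nox4 KO (adjusted p = 0.0329).

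The rise of Hbegf changed the make-up of the ligand transcripts. Of the RPKM summed over the 7 ligands, Hbegf held 54.8% to 66.8% in WT control and 91.1% to 93.1% after TGF-β2. In Nox4 KO its share went from between 61.1% and 64.6% in control to between 88.3% and 91.2% after TGF-β2. The sum itself was 24.2 to 37.6 RPKM in the unstimulated WT libraries and 208 to 210 RPKM in the stimulated ones. In Nox4 KO it reached at most 39.4 RPKM in control and at least 153 RPKM after TGF-β2. Ereg held 24.0% to 30.4% of the sum in the control libraries of both genotypes and 3.20% to 6.21% in the stimulated ones. These are shares of transcript, with no measurement of shed ligand.

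**Figure D2:**
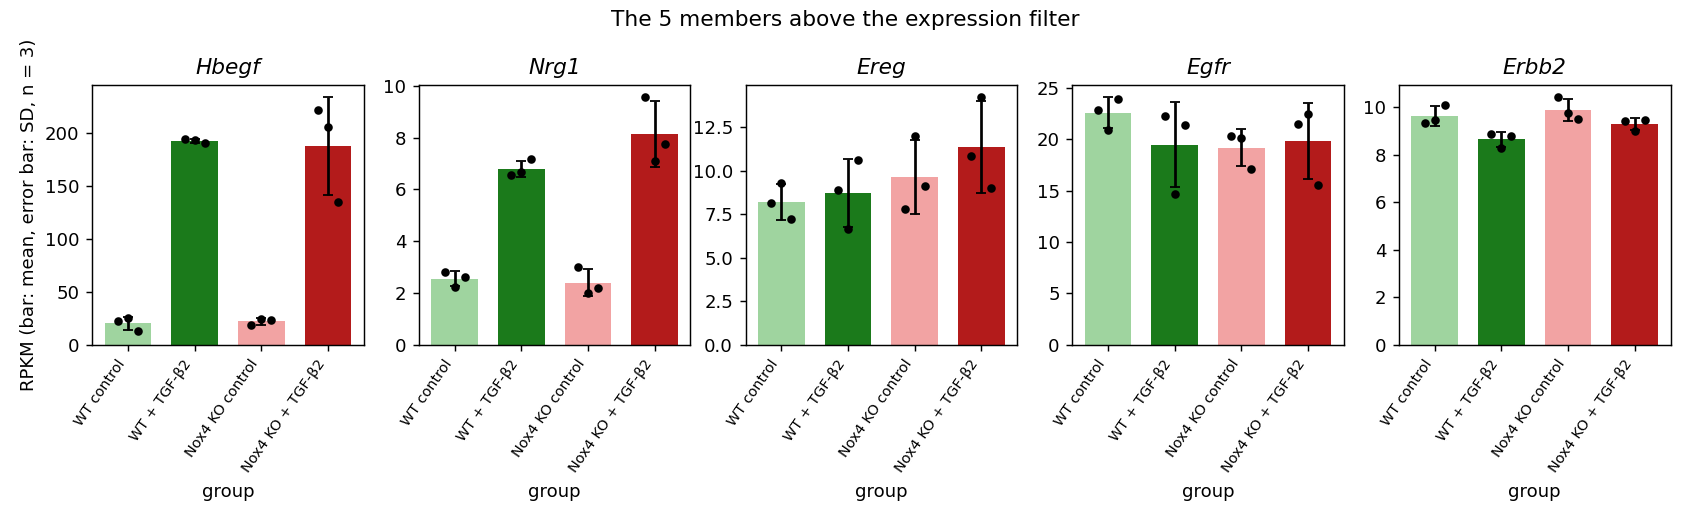
RPKM of the 5 genes above the filter in the 4 groups, with bars for the mean, error bars for the SD (n = 3) and a point per library. Mean Hbegf went from 20.2 to 193 RPKM in WT and from 22.0 to 188 RPKM in Nox4 KO, while the bars of Egfr stay between 19.2 and 22.6 RPKM.

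Nrg1 (ENSMUSG00000062991, chr8:31814551-32884029, minus strand) encodes neuregulin 1, the ligand of ERBB3 and ERBB4 that is best known for Schwann cell and heart development. It had 2.82, 2.23 and 2.60 RPKM in WT control and 6.55, 6.68 and 7.15 RPKM after TGF-β2. In Nox4 KO it had 3.00, 2.00 and 2.19 RPKM in control and 9.55, 7.08 and 7.75 RPKM after TGF-β2. All stimulated libraries were above all control libraries in both genotypes. Nrg1 rose 2.74-fold in WT (log2 fold change 1.45, SE 0.11, 95% interval 1.18 to 1.72, adjusted p = 0.000742) and 3.60-fold in Nox4 KO (log2 fold change 1.85, SE 0.19, 95% interval 1.39 to 2.31, adjusted p = 0.00333). Leaving out the library of highest macrophage sum in each group gave 1.41 in WT (adjusted p = 0.00780) and 1.92 in Nox4 KO (adjusted p = 0.0319). Its receptors were scarce, with 2 to 25 counts per library for Erbb3 and 0 to 4 for Erbb4. Exons of Nrg1 share 442 bases, 5.61% of the merged exon length, with the lincRNA Gm26578 on the other strand, and strand use in the counting is not given in the sources used here.

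The ligands share the EGF-like fold, a stretch with 6 cysteines at set distances. A search of the coding sequences in GENCODE M21 for that spacing found it once in every coding transcript of 6 of the 7 ligands, and in 1 of the 2 coding transcripts of Tgfa, and each time the stretch was split over 2 exons. It measures 108 bases in every ligand but Nrg1, where it measures 120. Shown are the stretches of Nrg1, which comes in 2 forms that end in different exons, and of the neighbouring genes Ereg and Areg, with capitals marking the cysteine codons. The form in 8 of the 12 coding transcripts of Nrg1 spans chr8:31837698-31849398 and the form in the other 4 spans chr8:31838298-31849398, both on the minus strand. The Ereg stretch spans chr5:91088496-91089111 and the Areg stretch chr5:91143614-91144364, both on the plus strand of GRCm38.
Nrg1, 8 transcripts: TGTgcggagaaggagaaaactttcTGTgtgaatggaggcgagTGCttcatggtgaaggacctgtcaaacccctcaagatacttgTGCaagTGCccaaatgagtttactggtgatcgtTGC
Nrg1, 4 transcripts: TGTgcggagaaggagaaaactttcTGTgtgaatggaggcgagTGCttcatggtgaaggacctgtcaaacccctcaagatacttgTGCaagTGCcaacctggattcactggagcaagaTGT
Ereg: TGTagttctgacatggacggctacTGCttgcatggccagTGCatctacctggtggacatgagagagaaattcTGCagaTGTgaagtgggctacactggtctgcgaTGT
Areg: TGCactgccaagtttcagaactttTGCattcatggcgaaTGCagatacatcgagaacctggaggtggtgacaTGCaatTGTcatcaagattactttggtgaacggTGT

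The last exon of the stretch is the part that differs between the Nrg1 forms shown above. The deposited values are counts per gene, so they do not show which of these forms made up the rise of Nrg1.

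Ereg (ENSMUSG00000029377, chr5:91074622-91093646, plus strand) encodes epiregulin, a ligand of EGFR and ERBB4, and was the second most abundant ligand by mean RPKM. It had 8.11, 9.26 and 7.23 RPKM in WT control and 8.86, 6.66 and 10.6 RPKM after TGF-β2. In Nox4 KO it had 7.78, 12.0 and 9.14 RPKM in control and 10.8, 14.2 and 9.01 RPKM after TGF-β2. The groups overlapped in both genotypes. The log2 fold change was 0.13 in WT (95% interval -0.34 to 0.59, adjusted p = 0.669) and 0.32 in Nox4 KO (95% interval -0.22 to 0.87, adjusted p = 0.313). In Nox4 KO, control and stimulated libraries of the same replicate number deviated together (r of 0.689 to 0.764 across genes). With the replicate number as a block, Ereg passed there (log2 fold change 0.32, adjusted p = 0.0346), and then 3 of the 5 tested genes were called, where 25.2% of all tested genes were called higher and 28.8% lower. Even so, replicate 3 had slightly less Ereg after TGF-β2 than in control. Exons of Ereg overlap the antisense transcript Gm19610 over 141 bases, 3.42% of their length.

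Ereg is 1 of 4 ligand genes that lie together within 376 kb of chromosome 5 (chr5:91027464-91402994), with Epgn (epigen) before it and Areg (amphiregulin) and Btc (betacellulin) after it. The other 3 had few reads. Areg (ENSMUSG00000029378, chr5:91139599-91148432) had 1, 4 and 2 counts in WT control and 7, 10 and 6 counts after TGF-β2, and 3, 6 and 2 counts and 18, 16 and 1 counts in the matching KO groups. The WT groups did not overlap, but the KO groups did, since KO replicate 3 had a single read after TGF-β2. A two-sided exact permutation test of log2(CPM + 0.5) gave p = 0.1 in WT, the smallest possible with 3 against 3, and p = 0.4 in Nox4 KO. In a fit of all genes with no filter on level, the log2 fold change of Areg was 1.72 in WT (SE 0.61, adjusted p = 0.0974). It was 1.61 in Nox4 KO (SE 0.91, adjusted p = 0.270), so no change was detectable with these few reads and this spread between replicates.

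Btc (ENSMUSG00000082361) had 23 to 92 counts per library and 0.228 to 0.730 RPKM, with overlapping control and stimulated groups in both genotypes. In the fit with no filter its log2 fold change was 0.38 in WT (adjusted p = 0.448) and 0.21 in Nox4 KO (adjusted p = 0.642). Epgn (ENSMUSG00000035020) had 0 to 11 counts per library, and its single library at 0 allows up to 3 counts. Its KO libraries had 4, 7 and 3 counts in control and 3, 2 and 1 after TGF-β2, below control in RPKM, with p = 0.1 in the same exact permutation test. The groups did not overlap for 48.5% of tested genes in Nox4 KO. The WT groups of Epgn overlapped. In the fit with no filter its log2 fold change was 0.32 in WT (adjusted p = 0.868) and -1.20 in Nox4 KO (adjusted p = 0.252). Tgfa (ENSMUSG00000029999, chr6:86195223-86275719, plus strand), which encodes TGF-α, the classical autocrine ligand of keratinocytes, had 32, 85 and 118 counts in WT control and 27, 48 and 64 after TGF-β2, and 45, 57 and 142 and 40, 41 and 106 counts in the matching KO groups. Replicate 3 was the highest in each of the 4 groups. The summed level of the 9 keratinocyte markers, at 0.610 to 1.12 RPKM over the 12 libraries, was also highest in replicate 3 of each group, as was Nox4, while the macrophage sum was lowest in replicate 3 of both KO groups. The part of other cells in the Tgfa reads was not tested. In Nox4 KO, where replicate numbers pair, Tgfa was lower after TGF-β2 in all 3 pairs. The log2 fold change of Tgfa without the filter was -0.65 in WT (adjusted p = 0.388) and -0.43 in Nox4 KO (adjusted p = 0.631). With the replicate block as well, it was -0.41 in Nox4 KO (SE 0.17, adjusted p = 0.102), where 39.2% of all genes passed, and none of the 5 members under 1 RPKM was called. The same fit in WT gave -0.62 (SE 0.21, adjusted p = 0.0662), with 23.2% of all genes passing. In WT the replicate numbers were not taken as pairs, since the correlations there ran from 0.043 to 0.516.

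No receptor gene passed the test for TGF-β2, and the intervals of the 2 tested ones were narrow beside the rise of Hbegf. Egfr (ENSMUSG00000020122, chr11:16752203-16918158, plus strand), the receptor for most of these ligands, had 22.9, 20.9 and 23.9 RPKM in WT control and 22.3, 14.7 and 21.4 RPKM after TGF-β2. In Nox4 KO it had 20.3, 20.1 and 17.1 RPKM in control and 21.5, 22.5 and 15.6 RPKM after TGF-β2. The groups overlapped, with WT replicate 2 and KO replicate 3 the low libraries after TGF-β2. Egfr had a log2 fold change of -0.17 in WT (95% interval -0.59 to 0.25, adjusted p = 0.517) and 0.13 in Nox4 KO (95% interval -0.26 to 0.53, adjusted p = 0.563). Without WT replicate 2 of the stimulated group the WT value was 0.01.

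Erbb2 (ENSMUSG00000062312, chr11:98412470-98437716, plus strand), the partner receptor, had 9.36, 9.45 and 10.1 RPKM in WT control and 8.87, 8.29 and 8.80 RPKM after TGF-β2, and 10.4, 9.74 and 9.53 RPKM and 9.40, 8.99 and 9.47 RPKM in the matching KO groups. The stimulated libraries lay just below the control libraries in RPKM in both genotypes. After TMM scaling, which resizes libraries for their composition, Erbb2 had a log2 fold change of -0.11 in WT (95% interval -0.31 to 0.08, adjusted p = 0.357) and -0.01 in Nox4 KO (95% interval -0.16 to 0.15, adjusted p = 0.951). Over 9 alternatives with all libraries kept, which were other scalings, filters, tests and fits, the KO value lay between -0.07 and 0.03. Erbb3 (ENSMUSG00000018166, chr10:128567523-128589652, minus strand), the kinase-impaired receptor for neuregulins, had 19, 25 and 10 counts in WT control and 11, 6 and 11 after TGF-β2, and 23, 2 and 19 and 12, 5 and 6 in the matching KO groups. Its log2 fold change without the filter was -0.91 in WT (SE 0.49, adjusted p = 0.256) and -0.98 in Nox4 KO (SE 0.82, adjusted p = 0.454). Of the RPKM summed over the 3 receptors, Egfr held 62.2% to 71.4% in every library, and nearly all of the rest was Erbb2.

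The 5 other genes of the family, Egf, Nrg2, Nrg3, Nrg4 and Erbb4, did not reach the filter. Egf had 25 to 78 counts per library. Without the filter its log2 fold change was -0.46 in WT (adjusted p = 0.375) and -0.62 in Nox4 KO (adjusted p = 0.379). With the replicate block as well, it was -0.62 in Nox4 KO (SE 0.21, adjusted p = 0.0474), where 39.2% of all genes passed. The blocked fit in WT gave -0.43 (adjusted p = 0.268), with 23.2% of all genes passing. Nrg4 had 19 to 33 counts per library, while Nrg2 had at most 4. Erbb4 had 0 counts in all WT libraries and Nrg3 had 0 in all 12, which allows up to 3 counts in each.

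Loss of Nox4 was set against these levels by comparing genotypes within control, within TGF-β2, and through the interaction of genotype and stimulation. In each of the 3, 0 of the 5 tested genes passed in edgeR, and so did 0% of all genes in control, 0% after TGF-β2 and 0% for the interaction. At an unadjusted p under 0.05, edgeR found 597, 337 and 292 genes in these fits (5.54%, 3.23% and 2.68%), of which 1, 0 and 0 were family members. Other tests did call genes between genotypes: DESeq2 called 28 in control (0.26%), 16 after TGF-β2 (0.153%) and 6 for the interaction (0.0551%), and edgeR's exact test called 17 (0.158%) and 7 (0.0671%) in the first 2 fits. Family members made up 0 of these. The single member was Egfr in control cells, where KO libraries (17.1 to 20.3 RPKM) lay below WT libraries (20.9 to 23.9 RPKM), with a log2 difference of -0.27 (SE 0.09, 95% interval -0.50 to -0.04, unadjusted p = 0.0270, adjusted p = 0.828). In stimulated cells the Egfr difference was 0.04 (95% interval -0.49 to 0.57, adjusted p = 0.956).

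The log2 difference of Hbegf between Nox4 KO and WT was 0.07 in control (95% interval -0.55 to 0.69, adjusted p = 0.971) and -0.02 after TGF-β2 (95% interval -0.47 to 0.44, adjusted p = 0.976). Its response differed between genotypes by -0.09 (95% interval -0.85 to 0.66, adjusted p = 0.958). For Nrg1 the response was larger in Nox4 KO by 0.41 on the log2 scale, with an interval that includes 0 (-0.09 to 0.91, adjusted p = 0.854). For Ereg the difference after TGF-β2 was 0.40 (95% interval -0.17 to 0.96, adjusted p = 0.838) and for Erbb2 it was 0.12 (95% interval -0.10 to 0.34, adjusted p = 0.838). Among the 3 tested ligands, the bound farthest from 0 in these pairwise intervals, drawn in the plot of log2 fold changes, was a 1.95-fold higher level in Nox4 KO, for Ereg after TGF-β2. The genotypes also carry different strain labels, and the study's methods derive both lines from littermates of heterozygous crosses that were then bred as separate lines. The part of the strain background in these values was not tested.

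**Figure D3:**
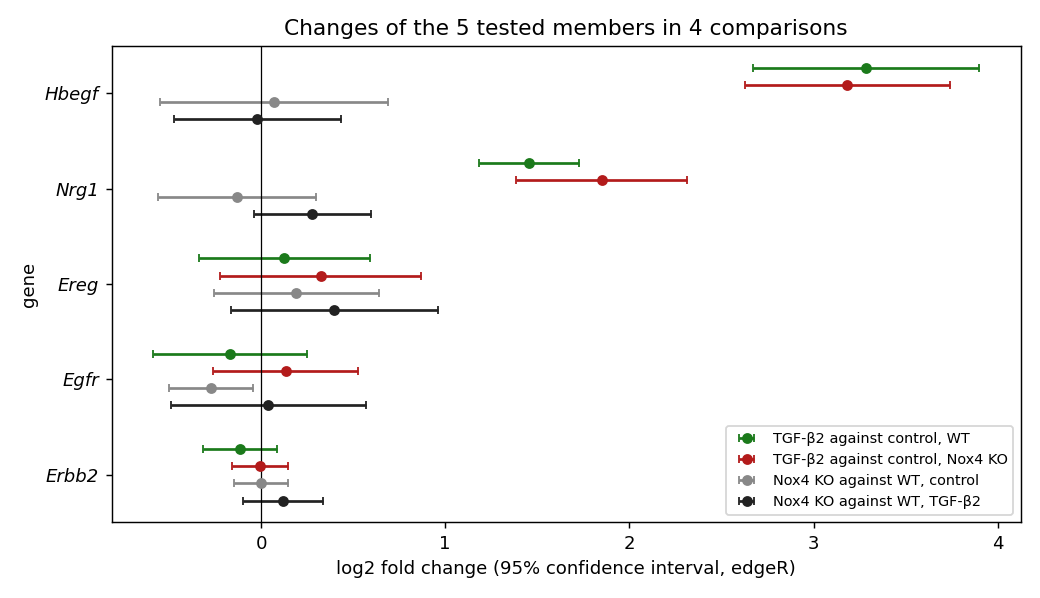
Log2 fold changes with 95% confidence intervals (edgeR, 3 libraries against 3) of the 5 tested genes in the 4 pairwise comparisons. For TGF-β2 against control, the intervals of Hbegf and Nrg1 lie above 0 in both genotypes and those of the other 3 genes include 0.

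Of 10 genes for shedding and trafficking of the ligands, 1 rose and 1 fell after TGF-β2 in WT, while 1 rose and 0 fell in Nox4 KO. Of all tested genes, 10.4% rose and 12.2% fell in WT, while 15.1% rose and 14.9% fell in Nox4 KO. The list median was -0.01 in WT and 0.01 in Nox4 KO, beside -0.0027 and -0.014 over all genes. The higher one in WT was Adam12, a metalloprotease known to cleave HB-EGF, with a log2 fold change of 0.74 (adjusted p = 0.0352). Its value in Nox4 KO was 1.19 (adjusted p = 0.116), and 1.26 with the replicate block (adjusted p = 0.000580). The lower one was Cd9, a tetraspanin that associates with the HB-EGF precursor at the cell surface, with -0.82 in WT (adjusted p = 0.0140) and -0.73 in Nox4 KO (adjusted p = 0.0699; with the block -0.72, adjusted p = 0.000447). The gene called higher in Nox4 KO, named after its values were seen, was the metalloprotease Adam19 (0.47, adjusted p = 0.0273). Adam17, the main sheddase of several EGFR ligands, had -0.31 in WT (adjusted p = 0.0673) and -0.08 in Nox4 KO (adjusted p = 0.375). With the block, 3 of the 10 were called higher and 3 lower in Nox4 KO, beside 25.2% and 28.8% of all tested genes. Without the library of highest macrophage sum in each group, which leaves 2 against 2, none of the 10 passed in either genotype, and the log2 fold changes of Adam12 (0.57 in WT and 1.25 in KO) and Cd9 (-0.67 and -0.77) kept their signs.

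Among 28 adaptors and effectors of the receptors, 4 rose and 5 fell in WT, beside 10.4% and 12.2% of all tested genes. In Nox4 KO 7 rose and 6 fell, beside 15.1% and 14.9% of all tested genes. The list medians were -0.07 in WT and 0.05 in Nox4 KO. The 1 with a change of at least 2-fold was Pik3r1, which encodes the p85α regulatory subunit of PI3K and fell by 1.39 on the log2 scale in WT (adjusted p = 0.00507) and by 1.20 in Nox4 KO (adjusted p = 0.00787). The catalytic subunit gene Pik3cb rose in both (0.95 and 0.92, adjusted p = 0.0176 and 0.00522), as did Map2k1, the kinase MEK1 that activates ERK (0.59 and 0.53, adjusted p = 0.00406 and 0.00823); both were named after their values were seen. With the block, 8 rose and 9 fell in Nox4 KO, beside 25.2% and 28.8% of all tested genes. Without the library of highest macrophage sum in each group, 1 was higher and 4 were lower in WT and 0 passed in Nox4 KO. The KO log2 fold changes were then -1.17 for Pik3r1, 0.83 for Pik3cb and 0.54 for Map2k1, close to those of the full fit. Of all genes, 1344 passed in WT and 255 in Nox4 KO with 2 libraries against 2, beside 2425 and 3243 with 3 against 3.

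Inhibitors and turnover factors of ERBB receptors formed a list of 14, of which Cblc was under the filter. Of the 13 tested, 2 rose and 1 fell in WT, beside 10.4% and 12.2% of all tested genes. In Nox4 KO 4 rose and 1 fell, beside 15.1% and 14.9% of all tested genes. The list medians were -0.03 in WT and 0.05 in Nox4 KO. Lrig3 and Lrig1, leucine-rich repeat membrane proteins of a family in which LRIG1 promotes degradation of ERBB receptors, both rose. Lrig3 went from between 9.46 and 12.4 RPKM to between 20.1 and 26.4 RPKM in WT (log2 fold change 1.10, adjusted p = 0.00299) and rose by 1.29 in Nox4 KO (adjusted p = 0.00239). Lrig1 rose by 0.99 in WT (adjusted p = 0.00623) and by 1.00 in Nox4 KO (adjusted p = 0.0141). Socs3, a suppressor of cytokine signalling, fell by 1.17 in WT (adjusted p = 0.00228) and by 1.18 in Nox4 KO (adjusted p = 0.0153). Errfi1, the inducible inhibitor of EGFR kinase, had -0.41 in both genotypes (adjusted p = 0.258 and 0.594), and -0.40 in Nox4 KO with the block (adjusted p = 0.00149). With the block, 5 were higher and 4 lower in Nox4 KO, beside 25.2% and 28.8% of all tested genes. Without the library of highest macrophage sum in each group, 2 higher and 1 lower were counted in WT, and 1 higher (Lrig3) and 0 lower in Nox4 KO, where Lrig1 had 0.99 (adjusted p = 0.105) and Socs3 -0.99 (adjusted p = 0.111).

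Of 15 known target genes of ERK signalling, 5 rose and 4 fell in WT, beside 10.4% and 12.2% of all tested genes. In Nox4 KO 4 rose and 2 fell, beside 15.1% and 14.9% of all tested genes. The list medians were 0.23 in WT and 0.15 in Nox4 KO, beside -0.0027 and -0.014 over all genes. The 2 that rose most in WT were the ERK phosphatase genes Dusp5 (log2 fold change 2.13 in WT, adjusted p = 0.00141, and 1.99 in KO, adjusted p = 0.0129) and Dusp4 (1.86, adjusted p = 0.00582, and 2.01, adjusted p = 0.00748). Dusp5 went from between 4.77 and 7.90 RPKM in WT control to between 24.0 and 31.1 RPKM after TGF-β2. The transcription factor genes Etv4 (1.31 and 0.97, adjusted p = 0.00483 and 0.0129) and Myc (1.02 and 0.74, adjusted p = 0.00113 and 0.00526) rose in both genotypes. Phlda1 rose in WT (1.28, adjusted p = 0.00312) and had 0.99 in Nox4 KO (adjusted p = 0.0508, and 0.000225 with the block).

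Other ERK targets went the opposite way. Fos, an immediate early gene, fell by 1.48 in WT (adjusted p = 0.0098) and by 1.93 in Nox4 KO (adjusted p = 0.00422). Spry2, a feedback inhibitor of receptor tyrosine kinases, fell by 1.36 in WT (adjusted p = 0.000814) and by 1.43 in Nox4 KO (adjusted p = 0.00501), from between 17.9 and 20.8 RPKM to between 6.80 and 8.41 RPKM in WT. Egr1 had 0.23 and 0.34 (adjusted p = 0.413 and 0.574) and Dusp6 had 0.21 and 0.15 (adjusted p = 0.435 and 0.533). With the block, 5 were higher and 3 lower in Nox4 KO, beside 25.2% and 28.8% of all tested genes. Without the library of highest macrophage sum in each group, 5 rose and 3 fell in WT, while 0 rose and 1 (Spry2) fell in Nox4 KO. The KO log2 fold changes were then 1.83 for Dusp5, 1.73 for Dusp4, 0.88 for Etv4, 0.78 for Myc (adjusted p = 0.0554) and -1.96 for Fos (adjusted p = 0.0558), so the signs held and the calls did not. These genes answer to many signals besides ERBB receptors.

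**Figure D4:**
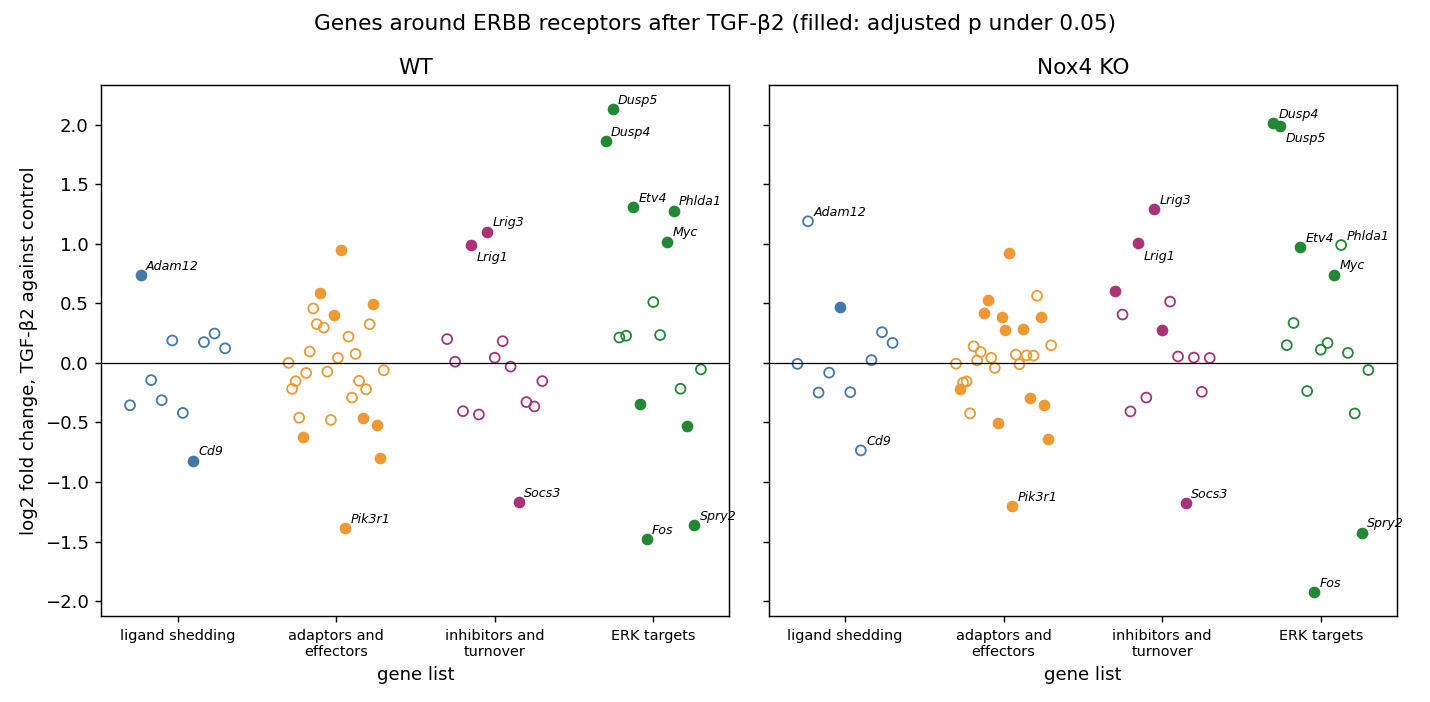
Log2 fold changes after TGF-β2 in WT and Nox4 KO for the tested genes of 4 lists, 1 point per gene, filled where the adjusted p was under 0.05. Dusp4 and Dusp5 sit at the top near 2 and Fos at the bottom in both genotypes, with Spry2, Pik3r1 and Socs3 above Fos and under -1.1.

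Over the 12 libraries, the genes whose log2(CPM + 0.5) was most like that of Hbegf, out of 10661 compared, were Las1l, Elk3, Chsy1, Lrrc59 and Ctsw, with Pearson r between 0.983 and 0.987. All 5 had positive log2 fold changes after TGF-β2, from 0.58 for Elk3 to 4.31 for Ctsw in WT, and Hbegf has the 2 levels of control and stimulated libraries, which such an r follows. Within the 6 control libraries their r with Hbegf was 0.260 to 0.800 and within the 6 stimulated ones 0.346 to 0.946. For Egfr the closest were Hivep2, Xylt1, Plxnd1, Supt6 and Ncoa3, with r between 0.915 and 0.933 over the 12 libraries, 0.835 to 0.970 within the control libraries and 0.895 to 0.971 within the stimulated ones.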

How the data were processed

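Per the study's methods and the submitters' processing notes, libraries were made with the Illumina TruSeq RNA kit, base calls came from CASAVA 1.8.2, and the authors mapped single-end reads to GRCm38 with STAR 2.4, dropped ambiguous reads and used featureCounts 1.4.6 to count those on the union of exons of each protein-coding gene. The deposited values are raw read counts per gene, with no normalization or filter; strand use in counting is not given in the sources used here. All 21556 genes matched GENCODE M21 by identifier. RPKM used the merged exon length (21099 genes from protein-coding transcripts, 457 from all transcripts) and the library total.

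Each comparison was fitted on its own 6 libraries, and the interaction on all 12, with edgeR 4.0.16 in R 4.3.3 (TMM, quasi-likelihood test, genes with a mean of at least 1 RPKM in a group, Benjamini-Hochberg adjustment over all genes tested). SEs were derived from the F statistic. Genes under the filter were also given by a fit with no filter and by exact permutation tests of log2(CPM + 0.5). A count of 0 allows up to 3 counts, which covers counting error only, and for a gene of 2 kb that is at most 0.0427 RPKM. The code was tested on simulated data.

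Named were all family members, list genes called with at least 2-fold change (otherwise the 2 smallest adjusted p in WT), the 5 genes closest to Hbegf and Egfr, and those said to be chosen later. The list genes Adam17, Errfi1, Cblc, Egr1 and Dusp6 were named outside this rule. The members and lists were chosen with earlier results of these data known. Replicate numbers were taken as pairs in Nox4 KO only, from the correlation of deviations from the group means (0.764, 0.689 and 0.741); in WT these were 0.043, 0.412 and 0.516. No libraries of a group were duplicates. Alternatives were other scalings, filters and tests (DESeq2 1.42.0, edgeR exact test), 1 fit of all 12 libraries, a replicate block, a fold limit and leaving out libraries; leaving out the libraries of highest macrophage marker sum, and the block with no filter, were added after the data were seen.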

Additional observations from a re-analysis of the deposited data

How the results depend on the processing

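Over the alternatives, the log2 fold changes of Hbegf and Nrg1 kept their sign and passed the threshold in both genotypes, and the number of family members passing stayed at 2 in WT, at 2 or 3 in Nox4 KO and at 0 in the genotype comparisons and the interaction. With all libraries kept and 1 choice changed at a time, the log2 fold change of Hbegf ran from 3.26 to 3.34 in WT and from 3.12 to 3.22 in Nox4 KO, and that of Nrg1 from 1.43 to 1.49 and from 1.79 to 1.89. Leaving out each library in turn gave 3.06 to 3.50 and 3.04 to 3.38 for Hbegf and 1.39 to 1.54 and 1.72 to 2.05 for Nrg1, and 2 family members passed in every such fit of TGF-β2 against control. With the replicate number as a block, 3 members passed in Nox4 KO, with Ereg added, and 5842 in place of 3243 genes passed overall; in WT 2 members passed with the block, and in the genotype comparisons and the interaction 0. The pairing in WT and between genotypes was not borne out by the correlations in every pair, and the block changed no other call of a tested family member. Calls in the 4 gene lists moved more: of the 10 shedding genes, 6 were called in Nox4 KO with the block, against 1 without it, and 0 in either genotype without the libraries of highest macrophage sum. Without those libraries, which leaves 2 against 2, 1344 genes passed in WT and 255 in Nox4 KO. Genes under 1 RPKM had wide errors. Areg and Epgn had few reads and also spread between replicates, from 1 to 18 counts for Areg in stimulated Nox4 KO and from 0 to 11 for Epgn in stimulated WT. Tgfa had a wide spread between replicates as well, and 3 libraries per group limit every comparison.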
